A study of Mus musculus with 70 samples.

Results

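Thyroid hormone acts on the pituitary through nuclear receptors that bind DNA with or without T3, and TRβ, the product of Thrb, is the receptor best known for feedback on the thyroid axis. T3 lowers the thyrotropin genes Tshb and Cga and raises Gh, the growth hormone gene. A second receptor gene, Thra, is also transcribed in the gland.

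The question here was which pituitary genes still respond to T3 when the mice carry no functional Thrb. The answer was read from 10 of the 18 RNA-seq libraries of the series, which holds 70 samples in all. The 10 libraries came from adult male Thrb-KO mice of the C57BL/6J strain, a line that lacks all TRβ products. In 5 of them the mice were hypothyroid, after methimazole and potassium perchlorate in the drinking water for several weeks. In the other 5 the mice were hyperthyroid, having received the same treatment with T3 added in the final week. The 4 hypothyroid and 4 hyperthyroid wild-type libraries, also from males of the C57BL/6J strain, entered the same model and served for the comparison of responses. Each library was made from a pool of 3 pituitaries, so the p-values measure the spread between these pools, not between single mice. All genes in the deposited table were considered, with 1 transcript for each gene symbol, and the genes named below were picked by a written rule.

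The hypothyroid Thrb-KO libraries held between 29262689 and 55273749 reads in the genes of the table, and the hyperthyroid Thrb-KO libraries between 21453548 and 41964574. At these depths 3 reads correspond to between 0.0543 and 0.14 CPM. Libraries of the same group correlated across genes with a Pearson coefficient of 0.984 to 0.997 in the hypothyroid Thrb-KO group and 0.973 to 0.996 in the hyperthyroid Thrb-KO group. Genes are not independent replicates, so these coefficients describe likeness only. Lars2 split the libraries into 2 sets, at 2571 to 3420 CPM in replicates 1 and 2 of each group and at 53.2 to 95.1 CPM in all other replicates. Both sets hold all 4 groups, and values within each set are given for part of the genes below. The main model held no term for the set, so the spread behind its p-values includes the difference between the sets. The tissue label was borne out by the hormone transcripts, since Gh, Prl and Pomc were abundant in every Thrb-KO library, the lowest value among them being 2559 CPM of Pomc.

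Thrb itself was examined before any other gene. Its level in the hypothyroid Thrb-KO libraries was 272, 295, 278, 271 and 239 CPM in replicates 1 to 5, and in the hyperthyroid Thrb-KO libraries 288, 301, 239, 245 and 228 CPM. Hypothyroid wild-type libraries held 239, 242, 249 and 297 CPM, and hyperthyroid wild-type libraries 124, 117, 72.4 and 103 CPM. The libraries labelled Thrb-KO thus held about as much Thrb transcript as hypothyroid wild-type libraries and more than the hyperthyroid ones. Counts over the whole transcript do not show whether the RNA encodes a receptor, and the reads over the deleted part were not used here. In limma the Thrb change with T3 in Thrb-KO was -0.06 on the log2 scale, with a standard error of 0.12 and an adjusted p of 1. In wild type Thrb fell by 1.32 log2 units, and the difference between these responses was 1.26 with an adjusted p of 0.000322. Thra ran at 93.8, 90.2, 84.6, 79.8 and 86.9 CPM in hypothyroid and 75.9, 73.9, 87.5, 81.2 and 80.1 CPM in hyperthyroid Thrb-KO libraries. The groups overlapped, and the Thra change of -0.13 did not pass the test in limma (adjusted p of 1). Within replicates 1 and 2 it was -0.29 with a limma adjusted p of 0.0296, under the 1.5-fold limit, and within the other set -0.01 (adjusted p of 0.986).

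T3 still changed the levels of a limited number of genes in Thrb-KO pituitary, in both directions. The thyrotropin subunit genes Tshb and Cga, the TRH receptor gene Trhr and the deiodinase gene Dio2 fell. Prl, which encodes prolactin, the corepressor gene Hr and the adenylyl cyclase gene Adcy7 rose. Of 13145 genes tested with limma, 54 (0.411%) were higher and 79 (0.601%) were lower with T3, at an adjusted p under 0.05 and at least 1.5-fold. In wild type the same model gave 509 (3.87%) higher and 735 (5.59%) lower. All folds were taken on the log2(CPM+1) scale, which understates the change of genes with few reads. The median change over all genes tested was -0.01 in Thrb-KO and -0.04 in wild type. Of the Thrb-KO calls, 17 raised and 30 lowered genes changed at least 2-fold, while 1 raised gene (Hr) and 7 lowered genes changed at least 4-fold. The 5 hyperthyroid and 5 hypothyroid libraries did not overlap for any of the 79 lowered genes, and for 52 of the 54 raised genes. Slc25a33 and Rhbdl1, named after their values were seen, were the raised genes with overlap. Such separation was seen in 733 (5.58%) of all genes tested. Within replicates 1 and 2 alone 80 genes were higher and 119 lower, and within the other replicates 69 were higher and 93 lower. Of the main calls, 45 raised and 69 lowered genes passed within replicates 1 and 2, and 42 and 68 within the other set.

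**Figure D1:**
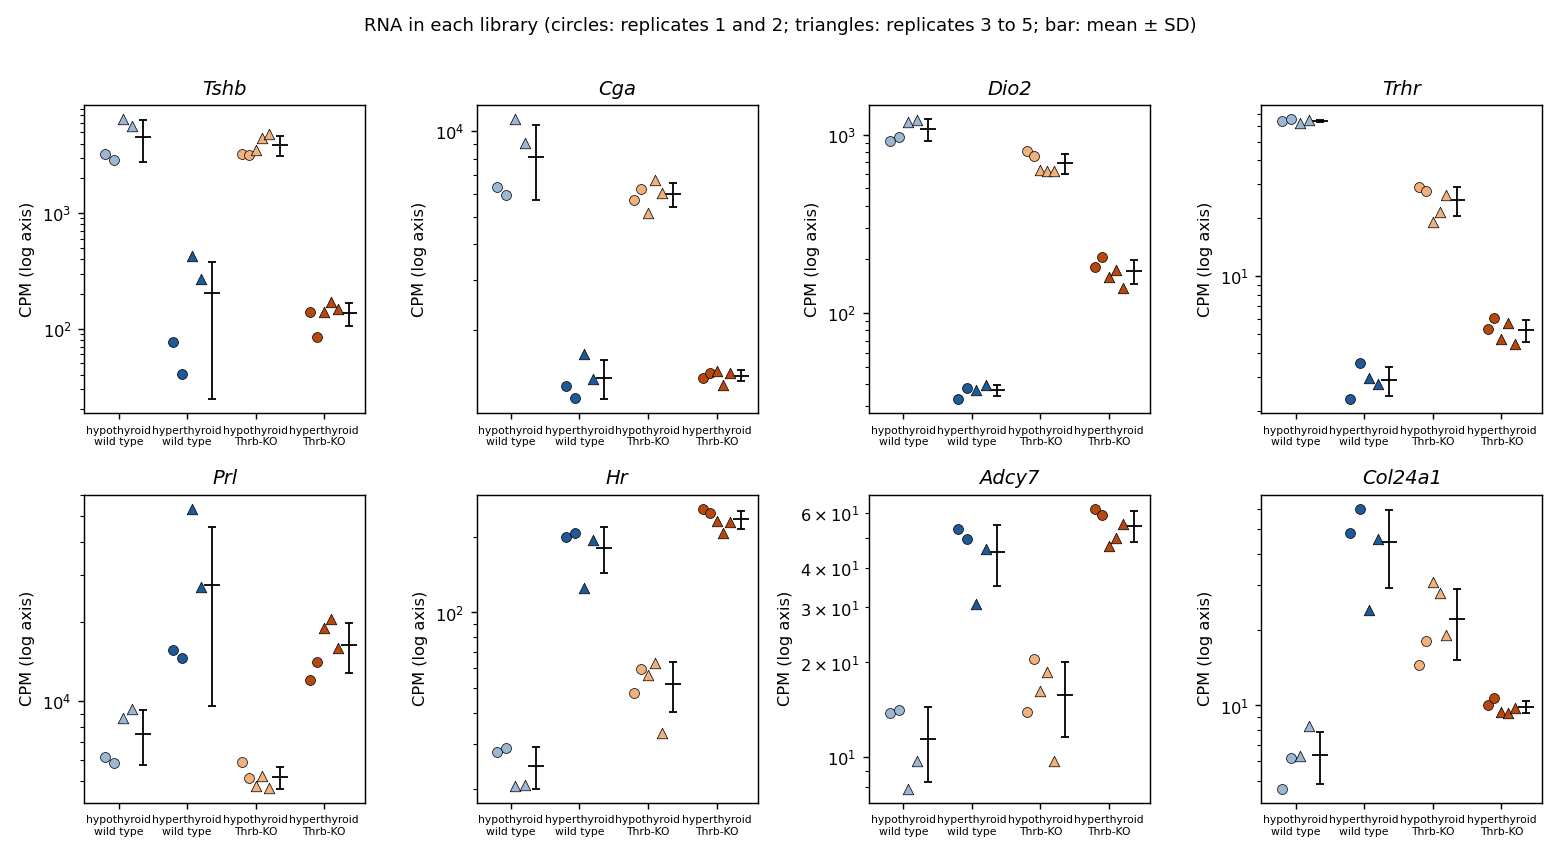
CPM of 8 named genes in the 18 libraries, on a log axis, by group (x axis), with circles for replicates 1 and 2, triangles for the other replicates and bars for the mean and SD. Tshb in the 5 hyperthyroid Thrb-KO libraries lies between 84.9 and 169 CPM, under all 5 hypothyroid Thrb-KO libraries at 3212 to 4832 CPM.

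Tshb, the gene for the specific subunit of thyrotropin, showed the largest change in the knockout. It stood at 3227, 3212, 3547, 4461 and 4832 CPM in hypothyroid and at 139, 84.9, 138, 169 and 149 CPM in hyperthyroid Thrb-KO libraries. The fall was -4.83 log2 units, or 28.4-fold, with a standard error of 0.46 and an adjusted p of 2.77e-06 in limma. Every hyperthyroid library lay far under every hypothyroid one, and replicate 2 of the hyperthyroid group was the lowest. In wild type the Tshb change was -4.95, from 3218, 2902, 6462 and 5679 CPM to 76.5, 40.5, 422 and 271 CPM. The response in Thrb-KO differed from that in wild type by 0.13, with a 95% interval from -1.31 to 1.56. Within replicates 1 and 2 the Thrb-KO change was -4.87, and within the other set -4.80. The difference from wild type had opposite signs in the sets, at 0.88 and -0.64, and passed in neither (limma adjusted p of 0.111 and 0.242). RNA from whole glands cannot tell fewer cells of a type from less RNA in each cell, for Tshb and for every other gene below.

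Cga encodes the subunit shared by thyrotropin and the gonadotropins. It was at 5730.1, 6269, 5161, 6761 and 6075 CPM in hypothyroid and 1355, 1416, 1436, 1284 and 1411 CPM in hyperthyroid Thrb-KO libraries. Cga fell by 2.11 log2 units (standard error 0.15, limma adjusted p of 9.92e-08), close to the same size in both library sets at -2.11 and -2.12. Its wild-type change was -2.55, and the difference of 0.43 was not called in limma (adjusted p of 0.388, interval -0.03 to 0.90). Both thyrotropin subunits thus kept a large response in the knockout. The remaining hormone genes of thyrotropes, gonadotropes and corticotropes were not called. Fshb was at 498, 556, 664, 797 and 871 CPM in hypothyroid and 396, 433, 536, 569 and 539.6 CPM in hyperthyroid Thrb-KO libraries, a change of -0.43 with a limma adjusted p of 0.165. Fshb was lower with T3 at each replicate number, the adjusted p in limma was 0.00943 with the replicate block and 0.029 and 0.0349 within the library sets, and the change stayed under 1.5-fold. Lhb had a change of 0.04 and Pomc, the corticotrope and melanotrope hormone gene, a change of 0.07, each with an adjusted p of 1 in limma.

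Dio2 and Trhr kept part of their response. Dio2 encodes the deiodinase that makes T3 from T4 inside cells. Its level was 806, 761, 631, 627 and 621 CPM in hypothyroid and 182, 207, 159, 174 and 137 CPM in hyperthyroid Thrb-KO libraries, a change of -2.00 (standard error 0.11, limma adjusted p of 6.35e-09). In wild type Dio2 fell by 4.81, from 917, 974, 1175 and 1209.8 CPM to 32.9, 38.2, 37.2 and 39.3 CPM, and the difference between the responses was 2.81 (limma adjusted p of 1e-08). Hyperthyroid Thrb-KO libraries held more Dio2 transcript than any hyperthyroid wild-type library, and hypothyroid Thrb-KO libraries held less than hypothyroid wild-type libraries (log2 difference -0.63, limma adjusted p of 0.00265). Trhr, the receptor through which TRH drives thyrotropes, was at 29.0, 27.6, 19.2, 21.5 and 26.5 CPM in hypothyroid and 5.30, 6.07, 4.72, 5.68 and 4.43 CPM in hyperthyroid Thrb-KO libraries. Trhr fell by 2.04 (standard error 0.11, limma adjusted p of 6.35e-09) against 4.08 in wild type, a difference of 2.04 with an adjusted p of 4.99e-07. Trhr also differed at both ends, as hypothyroid wild-type libraries held 63.8, 65.2, 62.9 and 64.5 CPM and hyperthyroid ones 2.29, 3.52, 2.96 and 2.75 CPM.

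Prss28, Serpinb1a and Chrdl1 also fell at least 4-fold. Prss28, a serine protease gene, dropped from 152, 159.5, 164, 206 and 135 CPM to 14.0, 8.93, 9.32, 8.64 and 10.4 CPM in Thrb-KO. Its change was -3.87 (standard error 0.43, limma adjusted p of 1.82e-05), smaller than the wild-type change of -6.19 by 2.32 (adjusted p of 0.0438). That difference did not pass in edgeR or DESeq2, with adjusted p of 0.0984 and 0.0698. Serpinb1a, a protease inhibitor gene, dropped from 12.2, 9.62, 6.26, 7.69 and 17.3 CPM to 1.11, 1.31, 1.24, 1.32 and 1.49 CPM, a change of -2.26 against -3.34 in wild type. Prss28 and Serpinb1a belong to gene families with related members, and whether reads were shared among the members was not tested. Chrdl1, an antagonist of bone morphogenetic proteins, went from 71.2, 69.2, 58.5, 59.9 and 81.3 CPM to 17.3, 16.6, 14.9, 16.2 and 12.2 CPM. Chrdl1 fell by 2.07 (standard error 0.15, limma adjusted p of 1.32e-07) against 3.67 in wild type, with a difference of 1.60 (adjusted p of 0.000203). The lower start was where the genotypes parted, since hypothyroid wild-type libraries held 179.6, 200.1, 195 and 210.4 CPM of Chrdl1.

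Vgf, which encodes a precursor of secreted peptides, fell by 1.96 in Thrb-KO (limma adjusted p of 4.09e-06), from a mean of 38.6 to 9.18 CPM. Peg10, an imprinted gene derived from a retrotransposon, fell by 1.91 (adjusted p of 3.78e-06 in limma), from 1192, 1208, 799, 798 and 849 CPM to 306, 314, 236, 239 and 187 CPM. Replicates 1 and 2 of Peg10 were the highest in both groups, and the groups did not overlap. Fstl5, a follistatin-like gene, fell by 1.85, and Ttr, the gene of the thyroid hormone carrier transthyretin, by 1.65. Both passed in limma, with adjusted p of 2.2e-05 and 2.18e-05. In wild type the changes were -3.41 for Vgf, -3.34 for Peg10, -2.97 for Fstl5 and -2.17 for Ttr. The difference between genotypes was called for Vgf, Peg10 and Fstl5 at 1.46, 1.43 and 1.12 and was not called for Ttr at 0.52 (limma adjusted p of 0.442). Within replicates 3 to 5 alone the differences for Serpinb1a, Vgf and Fstl5 did not pass in limma, with adjusted p of 0.11, 0.0516 and 0.0715. Over all libraries the difference did not pass for Serpinb1a (adjusted p of 0.2 in edgeR and 0.152 in DESeq2) or for Fstl5 (0.103 in edgeR and 0.0548 in DESeq2).

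Ache was 1 of 3 lowered genes whose fall was called larger in the knockout than in wild type. It encodes acetylcholinesterase and was at 126, 116, 105, 110.4 and 133 CPM in hypothyroid and 30.9, 31.6, 40.8, 33.4 and 42.7 CPM in hyperthyroid Thrb-KO libraries. The change was -1.70 (standard error 0.12, limma adjusted p of 1.32e-07) against -0.86 in wild type, a difference of -0.83 with an adjusted p of 0.0101. Hypothyroid wild-type libraries held only 60.4, 52.6, 61.0 and 53.1 CPM of Ache, and in the hyperthyroid state no difference was called, with means of 35.9 CPM in Thrb-KO and 31.2 CPM in wild type. Within replicates 3 to 5 alone the difference was -0.65 and did not pass in limma (adjusted p of 0.264).

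Among the raised genes Hr had the largest change. It encodes the hairless corepressor, a T3 target known from brain. Hr rose from 48.1, 59.6, 56.5, 62.8 and 33.3 CPM to 257, 248, 229.8, 206 and 228 CPM in Thrb-KO, a change of 2.17 (standard error 0.17, limma adjusted p of 2.48e-07). In wild type the change was 2.82, and the difference of -0.64 was not called (limma adjusted p of 0.185, interval -1.16 to -0.12). It was called with a block for the library set (limma adjusted p of 0.0499) and in DESeq2 (-0.75, adjusted p of 0.025). Hypothyroid Thrb-KO libraries already held more Hr than hypothyroid wild-type libraries, which were at 28.1, 29.2, 20.6 and 20.7 CPM (log2 difference 1.03, limma adjusted p of 0.000925). Adcy7 rose from 13.9, 20.5, 16.2, 18.7 and 9.69 CPM to 62.0, 59.5, 47.2, 50.0 and 55.5 CPM, a change of 1.77 (standard error 0.19, limma adjusted p of 1.18e-05) that stood beside 1.90 in wild type. Fut2, a fucosyltransferase gene, rose by 1.70 (standard error 0.17, limma adjusted p of 3.92e-06), from a mean of 6.88 to 24.2 CPM. The wild-type change of Fut2 was 2.18, and the difference of -0.48 was not called (limma adjusted p of 0.398).

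Prolactin transcript rose about as far in Thrb-KO as in wild type. Prl was at 5917, 5161, 4792, 5239 and 4718 CPM in hypothyroid and 12031, 14091, 18856, 20407 and 15913 CPM in hyperthyroid Thrb-KO libraries. The change was 1.63 (standard error 0.27, limma adjusted p of 0.00173), with 1.24 in replicates 1 and 2 and 1.90 in the other set. All hyperthyroid libraries were above all hypothyroid ones, although with no filter on low values the Prl call was lost (limma adjusted p of 0.955). In wild type Prl changed by 1.70, with 1 hyperthyroid library at 53184 CPM against 14523 to 26905 CPM in the rest, and the difference was -0.07 (interval -0.93 to 0.80). Gh, the most abundant transcript of the somatotropes, was at 57865, 57762, 73698, 70319.6 and 72480.2 CPM in hypothyroid and 94943, 89351, 82874, 88335 and 114941 CPM in hyperthyroid Thrb-KO libraries. These groups did not overlap, yet the change of 0.50 (standard error 0.19) did not pass in limma over all genes, with an adjusted p of 0.337. Within replicates 1 and 2 Gh did pass, with a change of 0.67 and an adjusted p of 0.0305 in limma, while the other set gave 0.39 with 0.494. The Gh change in wild type was 1.03 (limma adjusted p of 0.0017), and the difference of -0.53 was not called (adjusted p of 0.447).

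Other raised genes included Hunk, a kinase gene, and Gbp3, which encodes a guanylate-binding protein. Hunk was at 14.0, 16.6, 12.5, 14.2 and 11.3 CPM in hypothyroid and 36.8, 40.1, 36.0, 38.5 and 35.3 CPM in hyperthyroid Thrb-KO libraries. Its change of 1.39 (standard error 0.13, limma adjusted p of 3.19e-06) was smaller than the wild-type change of 2.69 by 1.31 (adjusted p of 0.00042). Gbp3 rose by 1.38 against 3.02 in wild type, and the reads of Gbp3 may be shared with close copies, which was not tested. Slco5a1, a gene of the organic anion transporter family, rose from 1.74, 2.98, 1.23, 1.31 and 1.41 CPM to 8.20, 8.49, 3.88, 5.14 and 4.66 CPM. The Slco5a1 change was 1.35 (standard error 0.27, limma adjusted p of 0.00718) and 1.59 in wild type, and replicates 1 and 2 were the highest of both Thrb-KO groups. Smaller responses than in wild type were called for 6030419C18Rik (1.30 against 2.34), Apobec1, the cytidine deaminase that edits Apob mRNA (1.23 against 1.92), C1qtnf1 (1.20 against 2.20), Olfml2b (1.18 against 2.18) and Dnaic2, an axonemal dynein gene (1.17 against 2.16). For Apobec1 and Dnaic2 the difference did not pass in replicates 3 to 5 alone, with limma adjusted p of 0.207 and 0.12.

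**Figure D2:**
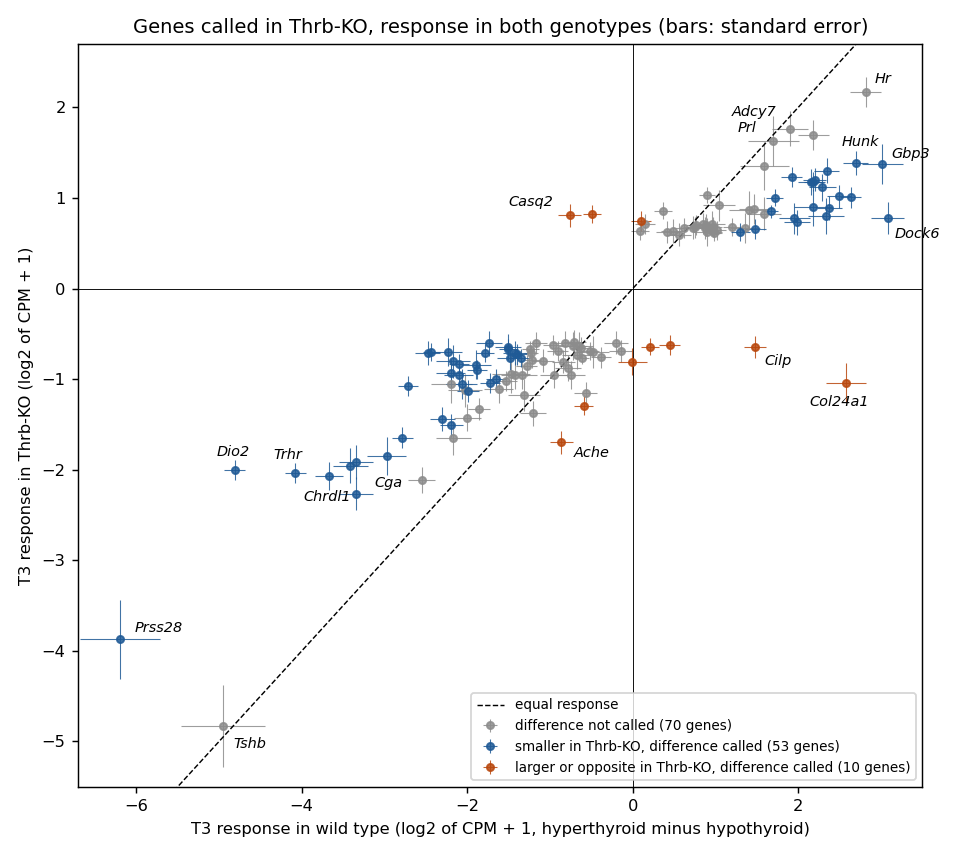
T3 response in wild type (x axis) and in Thrb-KO (y axis) for the 54 raised and 79 lowered genes of Thrb-KO, as log2 changes on the log2(CPM+1) scale with standard error bars, coloured by the test of the difference, and with a dashed line of equal response. Most points lie between that line and 0, with a median change of 0.80 in Thrb-KO and 1.38 in wild type for the raised genes.

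The genes that responded in Thrb-KO were mostly genes that responded in wild type, and to a smaller degree. The 2 responses share no libraries. Of the 54 raised genes, 52 had the same sign in wild type and 45 were called higher there, which is 83.3% of the Thrb-KO calls and 8.84% of the wild-type calls. Of the 79 lowered genes, 75 had the same sign and 68 were called lower in wild type, 86.1% of the Thrb-KO calls and 9.25% of the wild-type calls. Among the genes called in both, the Thrb-KO change was a median 59.7% of the wild-type log2 change for raised genes (range 25.2% to 115%) and 62.4% for lowered genes (range 28.7% to 218%). Genes called in the knockout were selected there, so these percentages lean towards larger Thrb-KO changes. Taken from the other side, 449 of the 509 genes raised in wild type had the same sign in Thrb-KO, with a median change of 0.21 against 0.88. For the 735 lowered genes these values were 675, -0.24 and -0.81. Both sets were selected in wild type, so their wild-type medians lean towards larger changes. The 95% interval of the Thrb-KO change lay within 1.5-fold of no change for 309 of the raised and 458 of the lowered wild-type genes.

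The difference between responses was tested directly, as the Thrb-KO response minus the wild-type response. Over all genes, 560 (4.26%) passed in limma. Among the 54 raised genes it passed for 23, of which 20 had a smaller response in Thrb-KO, 1 a larger one and 2 the opposite sign. Among the 79 lowered genes it passed for 40, with 33 smaller, 3 larger and 4 of opposite sign. For the remaining 31 raised and 39 lowered genes no difference was called, which does not show that the responses were equal. Genes of at least 2-fold change with responses nearest to wild type were Prl, Prkcq, Adcy7, Slco5a1 and Fut2 among the raised and Tshb, Casr, C2cd4a, Cga and Thy1 among the lowered. Prkcq, a protein kinase C gene, rose from 12.9, 14.9, 13.9, 15.5 and 13.3 CPM to 29.3, 31.9, 28.8, 28.2 and 31.1 CPM in Thrb-KO, by 1.03 against 0.90 in wild type (interval of the difference -0.14 to 0.40). The calcium-sensing receptor gene Casr fell by 1.17 against 1.31 (interval -0.41 to 0.69), and its difference had opposite signs in the sets, at -0.30 in replicates 1 and 2 and 0.57 in the others. For Fut2 the differences within the sets were -0.09 and -0.79. None of these set values for Casr and Fut2 passed in limma. C2cd4a fell by 1.38 against 1.20 (interval -0.62 to 0.27), and Thy1, a surface glycoprotein gene, by 1.02 against 1.53 (interval 0.16 to 0.86, limma adjusted p of 0.0963). The Thy1 difference of 0.51 had a limma adjusted p of 0.00987 with the replicate block and 0.00355 with a block for the library set, and within replicates 1 and 2 it was 0.68 and passed both limits (limma adjusted p of 0.000162), beside 0.34 in the other set (adjusted p of 0.2).

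The next genes had a smaller response and the lowest adjusted p of the limma difference. Slc6a11, a GABA transporter gene, rose from 39.7, 46.2, 44.4, 50.2 and 39.3 CPM to 103, 94.1, 84.1, 82.9 and 82.2 CPM in Thrb-KO, by 1.01 (limma adjusted p of 1.88e-05) against 2.64 in wild type. The difference was -1.63 (adjusted p of 6.86e-06 in limma). Dock6, an exchange factor gene for small GTPases, went from 38.8, 42.8, 36.7, 33.1 and 30.9 CPM to 60.4, 59.3, 76.2, 59.2 and 60.4 CPM. Its change of 0.78 (limma adjusted p of 0.0252) stood against 3.08 in wild type, where hyperthyroid libraries held 252, 303, 153 and 336 CPM. The Dock6 call in Thrb-KO was lost in each library set, at 0.54 in replicates 1 and 2, which is under 1.5-fold, and at 0.93 with an adjusted p of 0.0623 in limma in the others. It was also lost without any 1 of several single libraries, and the difference from wild type held in both sets at -2.39 and -2.30. Syt12, a synaptotagmin gene, rose by 1.02 against 2.49, Tpst1, a tyrosylprotein sulfotransferase gene, by 0.85 against 1.68, and Klhl33 by 0.89 against 2.37.

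Among the lowered genes Pcsk1, which encodes the prohormone convertase PC1/3, was at 251, 222, 269, 287 and 323 CPM in hypothyroid and 147, 164, 167, 173 and 174 CPM in hyperthyroid Thrb-KO libraries. Pcsk1 fell by 0.70 (standard error 0.10, limma adjusted p of 0.00022) against 2.43 in wild type, from 598, 664, 784 and 744 CPM to 129, 132, 119.6 and 131 CPM. Bdnf, the gene of brain-derived neurotrophic factor, fell from 52.9, 47.9, 41.1, 41.1 and 60.8 CPM to 20.5, 24.0, 25.5, 21.3 and 21.0 CPM, by 1.07 (limma adjusted p of 4.99e-06) against 2.72. Il34, a cytokine gene acting on macrophages through Csf1r, fell by 0.71 against 2.48. The differences from wild type were 1.73 for Pcsk1, 1.64 for Bdnf and 1.77 for Il34, all called in limma with adjusted p of 4.99e-07, 3.63e-06 and 2.04e-05.

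Levels were set side by side to see at which end these smaller responses parted from wild type. The comparisons of levels use the same libraries as the responses and are therefore not independent of them. In hypothyroid mice 133 (1.01%) of the 13145 genes were higher and 264 (2.01%) lower in Thrb-KO than in wild type, and in hyperthyroid mice 334 (2.54%) were higher and 305 (2.32%) lower, all by limma. Of the 20 raised genes with a smaller response, 12 were lower than wild type in the hyperthyroid state and 6 were higher in the hypothyroid state, 2 of them both, and 4 passed at neither end. Hunk was of the first kind, with 37.3 CPM in hyperthyroid Thrb-KO against 91.1 CPM in wild type and 13.7 against 13.2 CPM in the hypothyroid state. Tpst1 was of the second kind, with 36.8 against 17.1 CPM in the hypothyroid state and 67.0 against 57.0 CPM in the hyperthyroid state. Of the 33 lowered genes with a smaller response, 18 were lower than wild type in the hypothyroid state, 1 was higher there, 13 were higher in the hyperthyroid state, 4 passed at both ends and 5 passed at neither end. Il34 differed in the hypothyroid state alone, with 3.07 CPM against 14.1 CPM. Bdnf differed in the hyperthyroid state alone, with 22.5 CPM against 6.41 CPM.

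A few genes responded in Thrb-KO in the direction opposite to wild type. Col24a1, a fibrillar collagen gene, was at 14.5, 18.1, 30.8, 28.0 and 19.0 CPM in hypothyroid and 10.1, 10.7, 9.39, 9.33 and 9.79 CPM in hyperthyroid Thrb-KO libraries. It fell by 1.04 in the knockout (standard error 0.22, limma adjusted p of 0.0121) and rose by 2.57 in wild type, from 4.68, 6.21, 6.31 and 8.30 CPM to 48.2, 60.2, 23.8 and 45.6 CPM. The difference was -3.61 (limma adjusted p of 1.25e-06), and within the sets the Thrb-KO fall was -0.60 in replicates 1 and 2 and -1.33 in the others. Cilp, a cartilage matrix gene, went from 18.1, 16.2, 18.4, 19.9 and 27.7 CPM to 12.1, 10.9, 13.6, 12.2 and 12.7 CPM in Thrb-KO, a change of -0.64 (limma adjusted p of 0.0055), and rose by 1.48 in wild type. Replicate 5 of the hypothyroid group was the highest for Cilp, and without it the change of -0.52 was under 1.5-fold. The call for Cilp was lost in each library set, at -0.53, which is under 1.5-fold, in replicates 1 and 2 and at an adjusted p of 0.0555 in limma in the others.

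Casq2, a calcium-binding protein gene of the sarcoplasmic reticulum, rose in Thrb-KO from 4.27, 5.17, 4.67, 4.96 and 3.61 CPM to 9.32, 10.2, 8.46, 6.43 and 9.28 CPM and fell in wild type, with changes of 0.81 and -0.76 (limma adjusted p of 0.000933 and 0.000607). Tmem200a rose by 0.82 in Thrb-KO and had a wild-type change of -0.49, which was under 1.5-fold, while Diap3, a formin gene, fell by 0.62 against a wild-type change of 0.44, also under 1.5-fold. The Diap3 fall did not pass in replicates 1 and 2 alone (limma adjusted p of 0.125). A530058N18Rik also had opposite signs, at -0.64 in Thrb-KO and 0.21 in wild type, where it was not called. Larger responses in Thrb-KO than in wild type were called for 4 genes, Ache among them. Pygm, the muscle glycogen phosphorylase gene, fell by 1.29 against 0.59, and Col27a1 changed by -0.81 against -0.00. Marchf11, a ubiquitin ligase gene, rose by 0.74 against 0.10. It was identified through its Entrez number, since its symbol had been turned into a number in the deposited table. In replicates 3 to 5 alone the differences for Pygm, Col27a1 and Marchf11 did not pass in limma, with adjusted p of 0.127, 0.413 and 0.0819. These 3 genes and A530058N18Rik fall outside the rule for named genes and were chosen after their values were seen.

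Genes with few reads add to the picture. A looser filter, with CPM above 1 in at least 4 libraries, tested 14472 genes, 1327 more, and gave 82 (0.567%) higher and 111 (0.767%) lower in Thrb-KO by limma. This filter admits a gene that exceeds 1 CPM in a single group, so the direction of such a gene is partly set by the filter, and these changes are given as values with that limit. B930025P03Rik and Ceacam16 exceeded 1 CPM only in hyperthyroid libraries, Ces1a and Ccl3 only in hypothyroid libraries and Tll2 only in hypothyroid Thrb-KO libraries. Values within the library sets were not computed for the added genes. The largest positive change among them was that of B930025P03Rik, a non-coding transcript, from 0.137, 0.753, 0.886, 0.855 and 0.320 CPM to 12.4, 14.8, 20.2, 18.2 and 16.6 CPM (change 3.47), beside 4.48 in wild type. Ceacam16 had a change of 1.82 against 3.72, from a mean of 0.436 to 4.18 CPM. Gpr139, an orphan receptor gene, rose by 1.70, and Drd4, a dopamine receptor gene, by 1.22, from a mean of 0.630 to 2.83 CPM. Angptl7 rose by 1.31 in Thrb-KO and had a wild-type change of 0.40, a difference of 0.91. Hyperthyroid wild-type libraries held 0.990, 1.32, 2.43 and 3.48 CPM of Angptl7, against 1.02 to 1.31 CPM in hypothyroid ones.

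Falls among these genes were led by Gm11428, from 33.8, 31.3, 29.7, 36.2 and 33.1 CPM to 1.85, 1.61, 1.67, 1.48 and 1.03 CPM (change -3.75). Next was the carboxylesterase gene Ces1a, from a mean of 11.5 to 0.380 CPM (change -3.17). Gm11428, Ces1a, Ceacam16 and the chemokine gene Ccl3 belong to families with close copies, and sharing of reads among them was not tested. Tll2, a metalloprotease gene, was at 3.72, 3.40, 2.28, 2.50 and 4.25 CPM in hypothyroid and 0.217, 0.167, 0.286, 0.442 and 0.186 CPM in hyperthyroid Thrb-KO libraries. Its change of -1.73 stood against -0.37 in wild type, where the hypothyroid libraries held no more than 0.580 CPM. Ccl3 had the same form, with a change of -1.72 against -0.37 and hypothyroid means of 3.53 CPM in Thrb-KO and 0.700 CPM in wild type.

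Gene lists give the same comparison by function. Over all genes tested 0.411% were higher and 0.601% lower, so at that share most lists of this size would hold no call. In wild type 3.87% of all genes tested were higher and 5.59% lower, with a median change of -0.04. Of the 7 pituitary hormone genes, Prl rose, Tshb and Cga fell, and the median change was 0.04, beside -0.01 over all genes tested. Of 12 receptors for hypothalamic and feedback signals only Trhr changed, with a median of 0.13. None of 14 genes for thyroid hormone receptors, partners and coregulators was called (median -0.03). Among 8 genes of thyroid hormone transport and metabolism, Dio2 and Ttr fell (median -0.10). In each of these lists the same genes passed when adjusted over the list alone. Of 23 T3 targets known from other tissues, 3 rose in Thrb-KO and none fell, with a median of 0.12, while 10 rose in wild type with a median of 0.49. The 3 were Hr, Gbp3 and Klf9, a Krüppel-like factor gene whose mean went from 86.5 to 137 CPM (change 0.67, limma adjusted p of 0.00338), though within replicates 3 to 5 alone its adjusted p was 0.0702. When adjusted over the list alone 4 passed, with Flywch2 as the added gene (change 0.72, limma adjusted p of 0.153 over all genes). The lists were chosen with earlier results of these data known, so calls added by adjusting over a list alone are no independent test.

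Further lists held lineage factors and genes of the cell cycle, metabolism, the clock and secretion. None of 18 pituitary lineage transcription factors was called (median -0.03, also adjusted over the list alone), although Six6 at 0.46 and Neurod1 at -0.49 had a limma adjusted p of 0.00153 and 0.00599 and missed only the 1.5-fold limit. None of 10 cell cycle genes was called (median 0.15), and Mki67 and Top2a had changes of 0.64 and 0.89 with adjusted p of 0.284 and 0.271 in limma. Negative changes were those of E2f1 at -0.40, which was called lower in wild type, and Ccnd1 at -0.15. The other 10 listed genes had too few reads for the test, among them Cdk1 with means of 0.775 and 1.76 CPM and Rrm2 with means of 0.947 and 1.88 CPM, and all of these except Ccne1 had the higher mean with T3. No call fell among 16 mitochondrial and lipid regulators (median 0.05). Adjusted over the list alone, neither of these lists gave a call. Of 18 circadian clock and immediate early genes only Dbp, a clock output factor gene, rose, by 0.67 against 0.62 in wild type, and it alone passed when adjusted over the list alone. The secretory pathway list of 19 genes had a median of -0.21, with Pcsk1 and Chgb called lower. In wild type the median was -0.30 with 6 called lower, beside 5.59% of all genes tested. Chgb, the chromogranin B gene, fell by 1.12 in Thrb-KO, from a mean of 11191 to 5158 CPM. Adjusted over the list alone, Sdf2l1 joined Pcsk1 and Chgb (change -0.75, limma adjusted p of 0.0924 over all genes). Pam and Scg3 of this list changed by -0.54 and -0.51, with limma adjusted p of 0.000412 and 0.000321, and missed the 1.5-fold limit.

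Among the markers of other cell types that could be tested, none was called with T3 in Thrb-KO, also when adjusted over the list alone. No skeletal muscle marker, 4 of 8 brain markers and 4 of 6 red blood cell markers were tested. The summed level of folliculostellate and stem cell markers was 234 CPM in hypothyroid and 215 CPM in hyperthyroid Thrb-KO libraries, with Nes the most abundant. Melanotroph markers, led by Pomc, summed to 3820 and 4006 CPM, posterior lobe markers to 114 and 116 CPM, and connective tissue markers to 327 and 322 CPM. Members of the connective tissue sum moved apart. Col1a1 went from 34.5 to 23.2 CPM and Col3a1 from 31.2 to 20.6 CPM (limma adjusted p of 0.164 and 0.069). Both were called lower in wild type. Lum and Fbln1 also had lower means with T3, and Col1a2, Dcn and Pdgfra higher ones. Endothelium and pericyte markers gave 371 and 327 CPM, and leukocyte markers, led by Csf1r, 67.5 and 77.1 CPM. The endothelium and pericyte sum was lower with T3 at each replicate number and highest in replicates 1 and 2. It was 473, 468, 314, 297 and 304 CPM in hypothyroid and 423, 410, 300, 262 and 239 CPM in hyperthyroid Thrb-KO libraries. Red blood cell markers were higher on average with T3, at 65.6 against 44.1 CPM, but hyperthyroid libraries spread from 29.5 to 89.7 CPM and hypothyroid ones up to 71.4 CPM. Skeletal muscle markers summed to under 2.34 CPM in every Thrb-KO library, and brain markers to 134 and 137 CPM. In hypothyroid and hyperthyroid wild type, brain markers summed to 71.8 and 68.1 CPM, leukocyte markers to 121 and 111 CPM and melanotroph markers to 5706 and 5703 CPM. The sums were not tested between genotypes. Of the brain markers, Slc17a6 had means of 71.1 and 74.6 CPM in Thrb-KO and 17.9 and 9.78 CPM in wild type.

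Regions bound by TRβ in normal pituitary lay near most of the raised genes. The binding regions came from untreated mice with a tagged TRβ and the T3-regulated open regions from nuclei of Thrb-expressing lineage cells, so neither describes chromatin of Thrb-KO mice. Both lists are on the NCBIM37 (mm9) build, and the deposited list of open regions does not give the direction of their change. Within 20 kb of the gene body, 41.3% of all genes tested that could be placed had a TRβ peak. Of the 54 raised genes 49 did, or 90.7% (95% interval 80.1% to 96%), and of the 79 lowered genes 26, or 32.9% (23.6% to 43.9%). In wild type the shares were 74% for raised and 37.3% for lowered genes. These intervals cover counting error only. With only the peaks of upper fold over control, the shares of raised genes were 53.7% in Thrb-KO and 52.4% in wild type, so the gap between the genotypes depended on the choice of peaks. T3-regulated open regions were near 7.8% of all genes, 53.7% of the raised and 7.59% of the lowered genes of Thrb-KO. Raised genes were somewhat longer than average, with a median of 31447.5 bp against 24982.5 bp, and lowered genes had a median of 45751 bp. Whether gene length bears on the shares was not tested. All 20 raised genes with a smaller response and 27 of the 31 with no called difference (87.1%) had a TRβ peak. The 5 raised genes without one were Camk2a, Marchf11, Abcb1b, Pfkfb3 and Tmem90b. No peak was found within 20 kb of Tshb, Cga, Chrdl1, Trhr, Dio2 or Peg10.

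**Figure D3:**
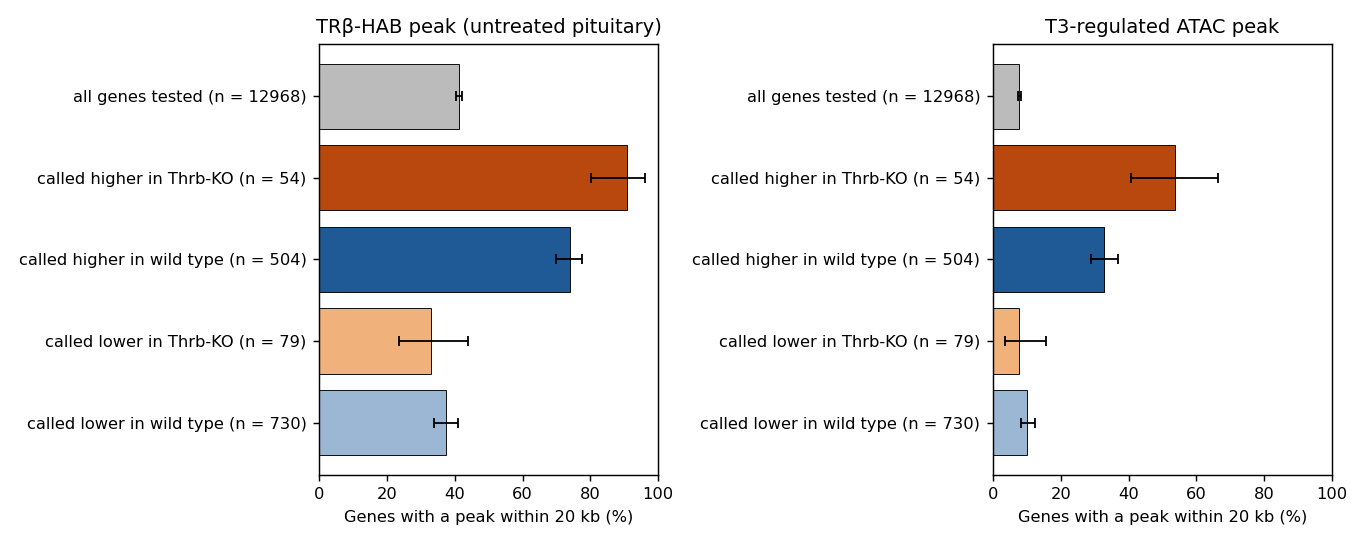
Percent of genes with a TRβ peak or a T3-regulated open region within 20 kb of the gene body, with a bar for each group of genes and lines for the 95% intervals of counting error. The raised genes of Thrb-KO reach 90.7% for TRβ peaks against 41.3% of all genes tested, and the lowered genes 32.9%.

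Peak sequences were searched on both strands for 2 copies of AGGTCA separated by 4 bases, allowing up to 2 differences among those 12 bases. Such a repeat was present in 20.9% of all 8051 TRβ peaks and in 3.58% of regions of the same length 10 kb away. It was present in 46 of the 109 peaks near raised genes (42.2%) and in 3 of the 47 peaks near lowered genes (6.38%), those in introns of Myo3b, Ntm and Cdh13. For all genes tested the share was 20.1%, and in wild type it was 30.4% near raised and 18% near lowered genes. Of the peaks near raised genes 30.3% overlapped a T3-regulated open region, against 9.05% of those near all genes tested, 4.26% near lowered genes and 22.3% near genes raised in wild type. These are descriptions of sequence, and binding to any single repeat was not tested. Peaks were not matched between the groups of genes for length or reads, and whether these bear on the shares was not tested. Genes named for their repeats or for the lack of a peak were chosen after these were seen.

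Full matches at 12 of 12 bases were found near 3 raised genes. They lay in introns of Slco5a1 (chr1:12944449-12944464, plus strand), Slc25a33 (chr4:149133699-149133714, minus strand) and Pppde2 (chr15:81845824-81845839, minus strand) on mm9. The sequences, read 5' to 3' on the strand given and with the 2 copies in capitals, were as follows.
Slco5a1: AGGTCAtataAGGTCA
Slc25a33: AGGTCAgtaaAGGTCA
Pppde2: AGGTCAagtcAGGTCA

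Repeats with 11 of 12 matching bases lay in introns of Adcy7 (chr8:90806789-90806804, minus strand), Dnaic2 (chr11:114602134-114602149, minus strand), Klf13 (chr7:71056990-71057005, plus strand) and H2afy (chr13:56206379-56206394, plus strand) and downstream of Tmeff1 (chr4:48693320-48693335, minus strand), in a peak that starts 17198 bp past the end of that gene. The peak at the Adcy7 repeat held 51 reads in tagged mice and 4 in controls. Upstream of Hr a repeat matched at 10 of 12 bases (chr14:70949426-70949441, minus strand), in a peak with 69 reads against 5. A repeat upstream of Klf9 (chr19:23208662-23208677, plus strand) also matched at 10. The 2 copies are in capitals, and each sequence is on mm9.
Adcy7: AGGGCAacccAGGTCA
Dnaic2: AGGTCAactcAGGTCG
Klf13: AGGTCAgctgAGGACA
H2afy: AGGTCAtttcAGGGCA
Tmeff1: AGGTCAtctgGGGTCA
Hr: AAGTCAacccAGGGCA
Klf9: AGGGCAgggcAGGGCA

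Of the 2 intronic TRβ peaks of Slco5a1, one holds the full repeat near its right end. That peak is chr1:12944251-12944500 on mm9, plus strand, with 17 reads in tagged mice and 3 in controls, and it overlaps a T3-regulated open region. Only the 2 copies of AGGTCA are in capitals.
Slco5a1 peak: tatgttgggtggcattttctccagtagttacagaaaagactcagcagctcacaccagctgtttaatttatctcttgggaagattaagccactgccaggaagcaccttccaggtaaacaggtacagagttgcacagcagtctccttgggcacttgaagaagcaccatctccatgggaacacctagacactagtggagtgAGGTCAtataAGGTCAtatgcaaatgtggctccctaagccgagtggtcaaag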

How the data were processed

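The deposited RNA-seq table gave CPM per transcript, computed by the authors after alignment with BBMap to mm9. The transcript with the highest mean over 18 libraries stood for each of 22835 gene symbols. CPM were turned back into reads, of which at least 99.99% were whole within 0.01 reads in every library. Genes with CPM above 1 in all 18 libraries (13145) entered limma with trend on log2(CPM+1), as 1 model of 4 groups. Contrasts were the T3 response in each genotype, their difference (interaction), and the genotypes at each state. Benjamini-Hochberg adjusted p under 0.05 and at least 1.5-fold made a call. Counts in edgeR (TMM) on recovered reads were 67 raised and 92 lowered, and in DESeq2 80 raised and 98 lowered. Deviations of same-numbered Thrb-KO libraries correlated at 0.386 to 0.668 and wild-type ones at 0.255 to 0.815, all over 0.1, and followed the library sets. Peaks were the authors' deposited lists, with read counts of merged libraries and fold (ratio over control). The p-value of each TRβ peak was computed by the authors with SICER and the adjusted p-value of each open region with edgeR, and neither was used. Named genes were receptors, hormones, the 12 largest calls without overlap in each direction, 5 nearest to the wild-type response and 5 smaller than it with the lowest adjusted p of the difference, in each direction, 5 larger or opposite, and up to 5 in each direction from the looser filter. Members and lists were chosen with earlier results of these data known. Scripts were tested on simulated data. Versions were R 4.3.3, limma 3.58.1, edgeR 4.0.16, DESeq2 1.42.0, Python 3.11.15, numpy 2.4.6, scipy 1.17.1, pandas 2.3.3, matplotlib 3.10.9 and samtools 1.23.1.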

Additional observations from a re-analysis of the deposited data

Results flagged for a closer look

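The 47 named genes with enough reads were searched for a Thrb-KO library far from the others of its group, which chance alone would give in about 1 of 20 groups. Of 94 groups looked at, 4 held such a library. For Pomc, hyperthyroid replicate 3 stood at 5391 CPM against 3001 to 3333 CPM in the others, with a gap of 0.821 of the range of the group. For Dock6, hyperthyroid replicate 3 stood at 76.2 CPM against 59.2 to 60.4 CPM, with a gap of 0.921 of the range. For Ttr, hyperthyroid replicate 1 was low at 1.20 CPM against 1.53 to 1.64 CPM (0.755), and for Casr, hyperthyroid replicate 5 was low at 12.8 CPM against 18.2 to 20.8 CPM (0.723).

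The T3 response of 30 named genes was called different between Thrb-KO and wild type in the main limma model. The differences, as Thrb-KO minus wild type in log2 units, were 1.26 for Thrb, -1.31 for Hunk, -1.64 for Gbp3, -1.04 for 6030419C18Rik, -0.69 for Apobec1, -0.995 for C1qtnf1, -1.004 for Olfml2b and -0.98 for Dnaic2. They were -1.63 for Slc6a11, -2.31 for Dock6, -1.47 for Syt12, -0.83 for Tpst1 and -1.48 for Klhl33. Among lowered genes they were 2.32 for Prss28, 1.08 for Serpinb1a, 1.60 for Chrdl1, 2.04 for Trhr, 2.81 for Dio2, 1.46 for Vgf, 1.43 for Peg10, 1.12 for Fstl5, -0.83 for Ache, 1.73 for Pcsk1, 1.64 for Bdnf and 1.77 for Il34. For genes of opposite direction they were -2.12 for Cilp, -3.61 for Col24a1, 1.31 for Tmem200a, 1.57 for Casq2 and -1.07 for Diap3. Many of these genes were named because this difference was large, so their values lean towards large ones. The differences of Prss28, Serpinb1a and Fstl5 did not pass in edgeR or DESeq2. Those of Apobec1, Dnaic2, Serpinb1a, Vgf, Fstl5 and Ache did not pass in limma within the library set with low Lars2 alone. Causes of the differences were not tested.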

How the results depend on the processing

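The libraries are pools of 3 pituitaries, 5 in each Thrb-KO group, and the counts of changed genes depend on the limits set. Genes with few reads enter only with a looser filter, and at the lowest depth 3 reads equal 0.14 CPM. Of 1081 alternatives for the log2 change of the 47 named genes, 1060 kept direction and side of the threshold, 15 no longer passed, 1 newly passed and 5 changed sign.

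Counts that moved by over 1.5 times were these. Raised genes (54) became 82 with CPM above 1 in at least 4 libraries and 92 with no 1.5-fold limit. Lowered genes (79) became 119 within replicates 1 and 2 and 143 with no 1.5-fold limit. Raised genes with a called difference from wild type (23) became 35 with no filter, 39 with the looser filter, 41 with DESeq2, 37 within replicates 1 and 2 and 37 with no fold limit. Lowered genes with such a difference (40) became 71 with no fold limit. The looser filters and the lifted fold limit admit more genes by construction, and elsewhere the cause was not tested.

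With 1 Thrb-KO library left out, raised genes ranged from 42 to 58, lowered genes from 71 to 83, and those with a called difference from 20 to 25 and from 33 to 38. With 1 wild-type library left out the ranges were 52 to 58, 77 to 84, 22 to 29 and 31 to 42. With the replicate block, 66 genes were raised and 98 lowered, 33 and 50 of them with a called difference, and the replicate block changed no call of a named gene. A block for the library set gave 67 and 98 and added the difference of Hr, edgeR 67 and 92, DESeq2 80 and 98, and TMM scaling 62 and 74.

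Changes of sign concerned genes near 0. Thrb was at 0.0549 within replicates 1 and 2. Lhb, with 1 Thrb-KO library left out, ranged from -0.0161 (without hypothyroid replicate 3) to 0.0957. Pomc was at -0.16 within replicates 1 and 2, at -0.03 without hypothyroid Thrb-KO replicate 3 and at -0.0808 without hyperthyroid Thrb-KO replicate 3, and up to 0.14 without another library. Prl no longer passed with no filter (1.63, limma adjusted p of 0.955), and neither did Dock6 in 10, Cilp in 3 and Diap3 in 1 of 23 alternatives each. Here too the cause was not tested.

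TRβ peaks were near 79.6% of the raised genes within 5 kb, 98.1% within 100 kb and 53.7% with the peaks of upper fold over control, against 90.7%. All genes tested gave 30.3%, 70.8% and 25.3%, against 41.3%, and genes raised in wild type gave 66.3%, 88.3% and 52.4%, against 74%. For lowered genes 100 kb gave 57% and the peaks of upper fold 21.5%, against 32.9%. The alternative with only the open regions of lower adjusted p was not run, because the adjusted p of that list was not used.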
